A study of Mus musculus with 67 samples.

Results

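Chromatin accessibility was compared in motor neuron progenitors, the pMN neural progenitors (NPs) of the ventral spinal cord, between day 4 and day 5 of their differentiation in vitro. The members were the pMN samples of these days, 11 of the 67 samples of the series: 6 from day 4 (3 at 100 nM SAG and 3 at 500 nM SAG) and 5 from day 5 (3 at 100 nM and 2 at 500 nM). All came from the unmodified mouse embryonic stem cell line HM1. Replicates of a condition were numbered 1 to 3 (2 and 3 for day 5 at 500 nM), and samples with the same number deviated together. The 11 samples are therefore not 11 separate differentiations of this 1 line. The p-values below nevertheless come from fits that treat the samples as independent. Fits with the replicate number as a block are given as an alternative. Cells received bFGF from the start, first with the Wnt secretion inhibitor LGK and then, for the step of neuromesodermal progenitors (NMPs, sampled at day 3), with CHIR99021, SB-431542 and DMH1. From day 3 every dish compared here had 100 nM retinoic acid (RA). The pMN dishes also had SAG, an agonist of Smoothened that stands in for Sonic hedgehog (Shh). pMN were sorted by CaTS-ATAC, in which fixed cells are exposed to the transposase, stained for SOX2 and the transcription factors of each domain (OLIG2 for pMN), and collected by flow cytometry.

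pMN are the OLIG2-expressing progenitors that give rise to motor neurons and later to oligodendrocytes. They arise when Shh induces Olig2, and they leave the cycle under proneural basic helix-loop-helix (bHLH) factors while Notch signaling keeps other cells as progenitors. RA from the somites acts on the same cells through nuclear receptors that bind DNA as dimers, and it promotes both neural and motor neuron differentiation. The comparison asks which regulatory elements of one sorted cell type opened or closed over one day, while the medium stayed the same.

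To show the motifs in place, 4 elements at which accessibility went up and a pair at which it went down, each with a match, are printed with their sequence. Each is the 300 bases around the center of the element in mm10, read on the plus strand of the GRCm38 reference. In the elements that opened, capitals mark the half-site AGGTCA of nuclear receptors and the E-box CAGATG of bHLH factors, on either strand. In the elements that closed, capitals mark TTTATGG, read by CDX and HOX factors, on either strand.
Npas3 element, chr12:53536901-53537200: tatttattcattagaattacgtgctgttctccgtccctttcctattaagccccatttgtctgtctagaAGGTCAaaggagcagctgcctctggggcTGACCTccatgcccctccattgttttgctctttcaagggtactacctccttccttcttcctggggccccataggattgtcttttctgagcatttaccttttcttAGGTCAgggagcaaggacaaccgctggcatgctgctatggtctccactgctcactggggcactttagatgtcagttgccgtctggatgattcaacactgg
Unc5d element, chr8:28855376-28855675: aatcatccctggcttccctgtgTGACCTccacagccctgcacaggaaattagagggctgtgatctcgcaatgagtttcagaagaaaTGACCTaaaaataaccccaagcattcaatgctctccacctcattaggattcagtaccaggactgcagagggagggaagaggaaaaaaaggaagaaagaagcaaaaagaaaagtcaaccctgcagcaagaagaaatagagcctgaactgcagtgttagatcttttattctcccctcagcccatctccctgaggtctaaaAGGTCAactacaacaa
Lhx3 element, chr2:26175297-26175596: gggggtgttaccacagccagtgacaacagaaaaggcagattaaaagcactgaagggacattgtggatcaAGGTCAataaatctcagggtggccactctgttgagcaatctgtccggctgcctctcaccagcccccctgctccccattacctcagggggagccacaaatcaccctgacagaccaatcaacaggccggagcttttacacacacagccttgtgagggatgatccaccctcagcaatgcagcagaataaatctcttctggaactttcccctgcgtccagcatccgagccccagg
Lhx4 element, chr1:155747042-155747341: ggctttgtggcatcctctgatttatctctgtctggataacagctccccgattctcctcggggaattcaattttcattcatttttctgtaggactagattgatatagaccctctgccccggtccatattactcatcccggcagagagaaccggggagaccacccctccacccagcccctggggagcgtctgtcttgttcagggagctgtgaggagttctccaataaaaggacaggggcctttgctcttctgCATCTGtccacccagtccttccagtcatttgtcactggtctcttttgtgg
Kit element, chr5:75478736-75479035: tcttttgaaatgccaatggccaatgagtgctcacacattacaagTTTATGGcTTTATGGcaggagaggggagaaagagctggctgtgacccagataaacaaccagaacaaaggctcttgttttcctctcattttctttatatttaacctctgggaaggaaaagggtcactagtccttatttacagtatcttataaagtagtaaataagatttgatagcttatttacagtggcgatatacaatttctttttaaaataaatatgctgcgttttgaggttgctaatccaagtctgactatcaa
Osbpl6 element, chr2:76419629-76419928: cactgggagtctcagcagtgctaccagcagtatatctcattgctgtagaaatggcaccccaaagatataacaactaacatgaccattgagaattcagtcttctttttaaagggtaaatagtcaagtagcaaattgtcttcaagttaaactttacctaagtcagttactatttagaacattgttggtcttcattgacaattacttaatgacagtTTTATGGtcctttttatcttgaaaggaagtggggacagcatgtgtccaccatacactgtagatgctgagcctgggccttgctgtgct
The element in an intron of Npas3 held 3 half-sites, as did that in an intron of Unc5d. The element near Lhx3 held 1 half-site, and that near Lhx4 held 1 E-box. The element near Kit had a pair of CDX/HOX matches separated by a single base, while that in an intron of Osbpl6 had 1 CDX/HOX match. Other named elements that opened (Olig2, Dll1 and Hoxc4) or closed (Sox5 and Fmn2) held none of these motifs in this window. The half-site was in 34.5% and the E-box in 36.4% of opened elements, and the CDX/HOX match in 9.86% of closed elements. Npas3 and Unc5d are among the 8 largest increases, whose sequences led to the search for the half-site.

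Accessibility was read as normalized counts, the reads in an element divided by the size factor of the sample. The 11 samples had between 14866189 and 26704636 reads in elements, and day 5 was on average deeper (19796834 to 26704636) than day 4 (14866189 to 21129917). Across tested elements, Pearson's r was 0.961 to 0.986 between replicates of a condition, 0.961 to 0.993 between the SAG concentrations of a day, and 0.784 to 0.876 between days. Elements are not independent replicates, so these coefficients are descriptive. The summed level of the elements nearest the start sites of Olig2, Olig1, Nkx6-1 and Sox2, which mark pMN, was 5690 to 6611 at day 4 and 6769 to 7323 at day 5. The summed level at T, Tbx6 and Cdx2, which mark NMPs, was 1302 to 1611 at day 4 and 1172 to 1281 at day 5. These elements did not move together. The mean fell from 219 to 127 at T and from 650 to 319 at Cdx2, but rose from 577 to 763 at Tbx6. In bulk samples, a wider opening in each cell and opening in a larger share of cells cannot be told apart.

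Between the days, opening was far more common than closing. Of 31131 elements with a mean above 100 normalized counts, 1044 opened, which is 3.35% of those tested, and 142 closed, or 0.456%. The call required an adjusted p under 0.01 by limma's moderated test on the deposited log2 scale, with the Benjamini-Hochberg adjustment, and a change of more than 2 in log2 normalized counts. In each of the 1186 called elements the samples of the days did not overlap, whereas 34.9% of all tested elements showed no overlap. At a log2 fold change above 1, 3663 elements (11.8%) were higher and 1085 (3.49%) were lower at day 5. The median difference over all tested elements was 0.11 on the VST scale, a log2-like scale, in favor of day 5. After each sample was centered on its median this background became -0.09 and 787 elements were higher against 209 lower, and after centering within bins of GC content the split was 666 to 259. An element that was nearly closed at day 4 passed the filter on the mean only through its level at day 5, so that the folds of such elements had to be large.

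**Figure D1:**
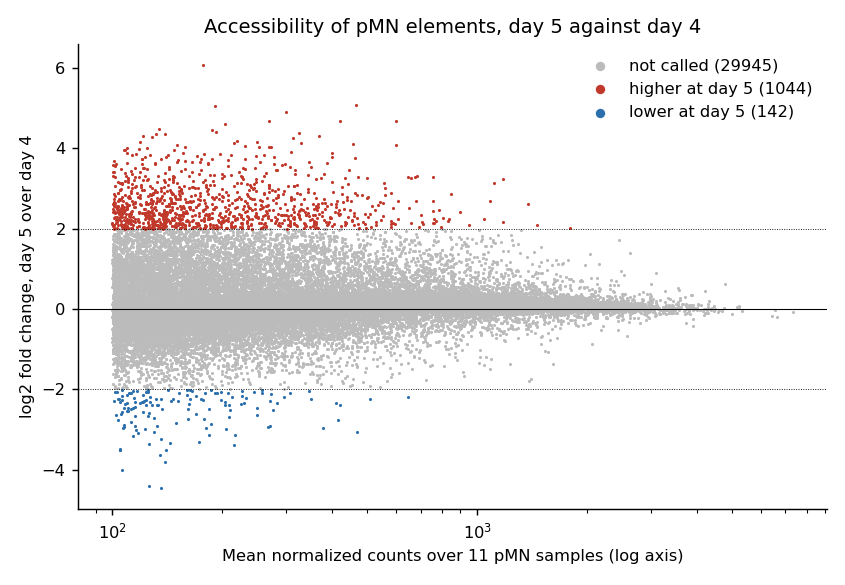
Each point is 1 of the 31131 tested elements, placed by its mean normalized counts over the 11 pMN samples (log axis) and its log2 fold change from day 4 to day 5. Red points mark the 1044 elements that opened and blue points the 142 that closed, the dotted lines stand at a log2 fold change of 2 in either direction, and the spread narrows at elements with many reads.

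The concentration of SAG made no detectable difference to this change. The interaction of day and concentration was called at 0 of 31131 elements (0%) by limma, and 181 elements had an unadjusted p under 0.05. Voom on the recovered reads also called 0, with 157 at an unadjusted p under 0.05, and the replicate block gave 0 and 1077. These counts lie below a share of 0.05 of the tested elements, the share expected when no element differs. Of the 1044 elements that opened, 1011 passed a log2 fold of 2 among the 100 nM samples alone and 911 among the 500 nM samples, and 878 passed it in both. All 1044 passed a log2 fold of 1 at each concentration. The median log2 fold of the opened elements was 2.53 at 100 nM and 2.40 at 500 nM, and that of the closed elements was -2.47 and -2.31. The test was thus a cautious one, and with 2 samples at 500 nM on day 5, differences between the concentrations could go undetected.

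The changes lay away from promoters. Among opened elements 53.7% were intergenic and 42.3% intronic, and 11 of 1044 (1.05%) were annotated as promoter-TSS, a class that made up 22.2% of all tested elements. The opened elements were a median of 63.3 kb from the nearest transcription start site (TSS), with quartiles at 24.2 and 159.6 kb, against 8.34 kb for all tested elements and 19.1 kb for those outside promoters. Closed elements were at a median of 50.3 kb, 47.9% of them in introns and 45.1% intergenic. Of 6899 promoter-TSS elements tested, 0.159% opened and 0.029% closed, while 4.26% of 24232 distal elements opened and 0.578% closed. Distal here means any class other than promoter-TSS. Of these distal elements 21.5% still lay within 1000 bp of a TSS, against 1.63% of opened elements. Past a log2 fold of 1, 14.9% of distal elements were higher and 4.35% lower, against 0.652% and 0.449% of promoter-TSS elements. The middle 80% of promoter elements lay between -0.21 and 0.29 on the VST scale, and that of distal elements between -0.58 and 1.27. The 2 promoter elements that closed were those of Hoxd4 and Timp4, which were picked out after their values were seen. The promoter element of Timp4, an inhibitor of metalloproteinases, had normalized counts between 262 and 423 at day 4, with a median of 354, and 39.2, 33.1, 67.5, 58.8 and 82.1 at day 5. It fell by 2.51 on the log2 scale, with no overlap between days (adjusted p = 3.63e-08, limma).

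The opened elements had been almost inaccessible in NMPs. Their median was 9.16 ± 0.92 normalized counts (SD, n = 3) in NMPs at day 3, 51.9 ± 9.73 (SD, n = 6) in pMN at day 4, 316 ± 36.6 (SD, n = 5) at day 5, where each sample gave 1 median over the set, and by day 6 it had reached 487 ± 51.3 (SD, n = 4). The NMP and day 6 samples were not used to choose the elements. The mean at day 6 was above that at day 5 in 901 of the 1044, and it stayed on the day 5 side of the midpoint between days 4 and 5 in 1035. In 778 of them the mean in NMPs was below 20 normalized counts. Closed elements, in contrast, were mostly at their highest at day 4. Their median was 40.0 ± 9.68 (SD, n = 3) in NMPs, 230.4 ± 29.5 (SD, n = 6) in pMN at day 4, 40.1 ± 6.28 (SD, n = 5) at day 5, and by day 6 it was 22.5 ± 4.61 (SD, n = 4). For 124 of the 142, the level in NMPs was below that of day 4, so that they were highest at day 4 among days 3, 4 and 5. The other 18 were higher in NMPs than at day 4.

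**Figure D2:**
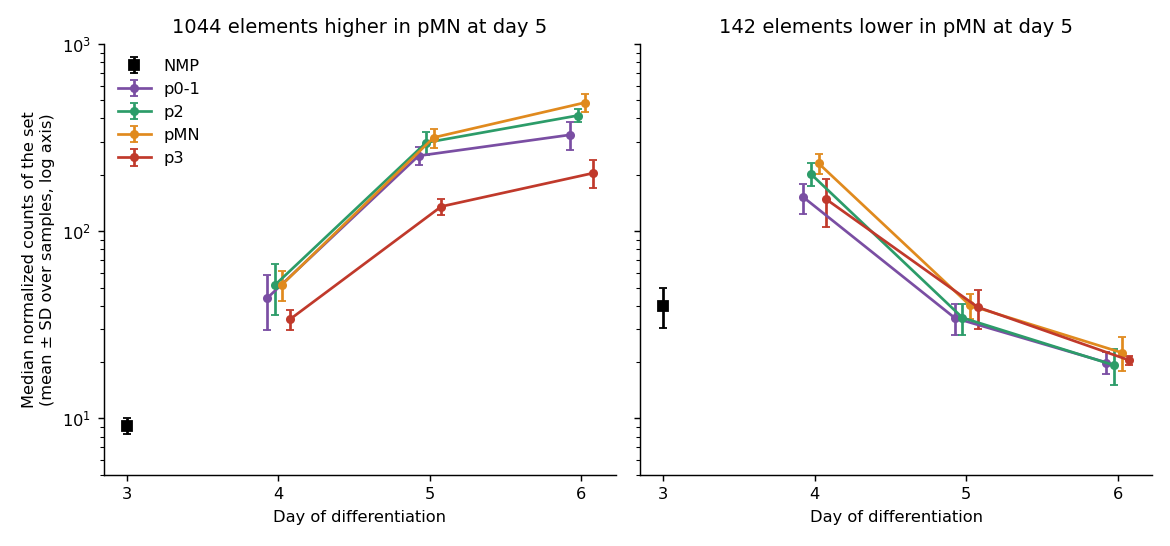
Points give the median normalized counts (log axis) of the 1044 elements that opened in pMN (left) and of the 142 that closed (right) by day of differentiation, as the mean ± SD over samples, in NMPs at day 3 and in p0-1, p2, pMN and p3 at days 4, 5 and 6. From day 4 to day 5 the opened set went from 51.9 to 316 in pMN and from 33.8 to 136 in p3, and the closed set went from 230.4 to 40.1 in pMN.

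The largest increases were at elements with next to no reads at day 4. They lay in an intron of or near Sox3, Prpf18, Npas3, Pdha2, Paqr3, Unc5d, Fut8 and Tmem161b, between 99854 and 364111 bp from the TSS of the gene nearest to them. Near Sox3, which encodes a SoxB1 factor of neural progenitors, the element at chrX:60731027-60731846 had normalized counts between 1.70 and 6.45 at day 4, with a median of 5.55, and 496, 337, 428, 320.5 and 339 at day 5. All 5 samples of day 5 were far above all 6 of day 4, and the element opened by 6.07 on the log2 scale. The fitted difference on the VST scale was 4.74 ± 0.164 (SE), with an adjusted p of 1.41e-10 (limma). In the intron of Npas3, which encodes a bHLH-PAS factor expressed in the nervous system, the element at chr12:53536841-53537259 had between 5.90 and 16.1 at day 4, with a median of 11.6, and 493, 414, 408, 344 and 381 at day 5. Its log2 fold change was 5.04 (adjusted p = 1.41e-10, limma). The elements with the largest changes, in both directions, were picked among called elements without overlap between days. Their lack of overlap was thus fixed by the choice. Within Unc5d, which encodes a netrin receptor, the intronic element at chr8:28855182-28855869 had between 10.97 and 61.2 at day 4, with a median of 31.3, and 1031, 916, 839, 913 and 723 at day 5. The log2 fold change was 4.68 (adjusted p = 1.45e-09, limma). An element 107265 bp from the TSS of Paqr3, a Golgi protein, reached the highest level of the 8, with counts between 29.5 and 63.1 at day 4, with a median of 42.1, and 1689, 1389, 1301, 1013 and 915 at day 5. The other 4 increased by 5.09 (Prpf18), 4.91 (Pdha2), 4.68 (Fut8) and 4.60 (Tmem161b) on the log2 scale. In all 8 the mean at day 6 exceeded that at day 5.

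The 8 largest decreases included elements near Kit, Smad1, Lbr and Tmed10 and in introns of Osbpl6 and Hebp2. Near Kit, the receptor of stem cell factor, the element at chr5:75478386-75479384 had normalized counts between 179 and 299.9 at day 4, with a median of 206, and 8.30, 11.03, 10.7, 8.11 and 9.92 at day 5. Every sample of day 5 was below 1 in 10 of the lowest sample of day 4, and the log2 fold change was -4.41 (VST difference -3.50 ± 0.143 (SE), adjusted p = 2.74e-10, limma). In the intron of Osbpl6, an oxysterol-binding protein, counts were between 158 and 308 at day 4, with a median of 267, and 7.54, 13.8, 9.77, 12.2 and 7.21 at day 5. This element fell by 4.46 on the log2 scale (adjusted p = 2.06e-09, limma), and its mean in NMPs was 7.64, so that it was open at day 4 among these 3 days. The element near Kit had a mean of 176 in NMPs, close to its level at day 4. Near Smad1, a transducer of BMP signals, the mean went from 186 to 10.2, with 247 in NMPs. In the intron of Hebp2, a heme-binding protein, the mean went from 241 to 19.98, with 369 in NMPs, and near Lbr, a receptor of the inner nuclear membrane, it went from 179.8 to 14.6, with 60.1 in NMPs. The element near Tmed10, a protein of the secretory pathway, fell by 3.52 on the log2 scale (adjusted p = 2.43e-09, limma).

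**Figure D3:**
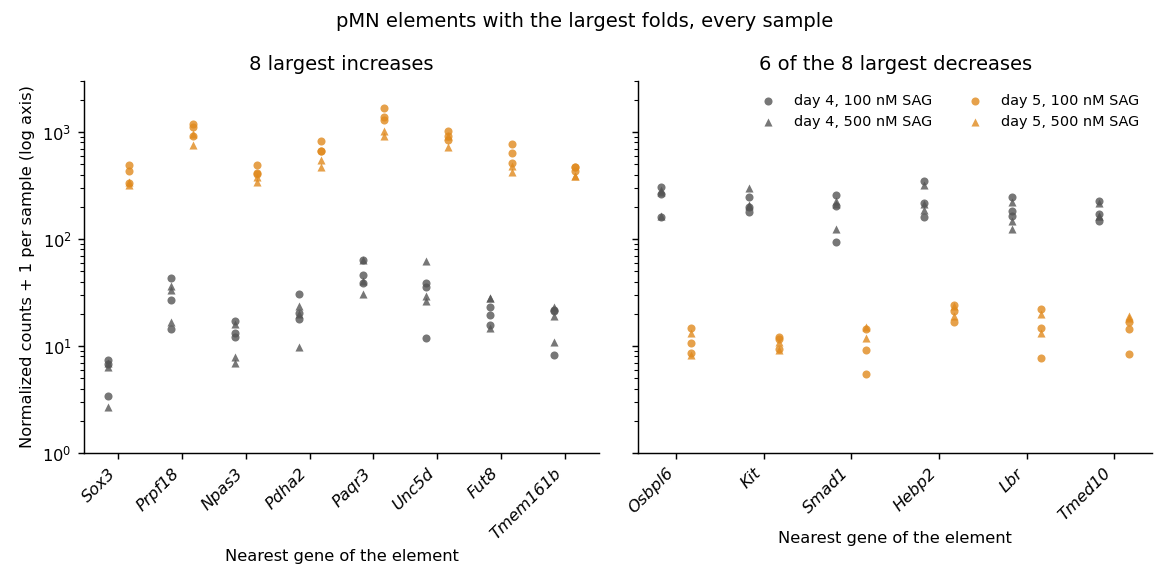
Normalized counts plus 1 (log axis) of every pMN sample at the 8 elements with the largest increase (left) and 6 of the 8 with the largest decrease (right), named by the nearest gene, with day 4 in grey, day 5 in orange, circles for 100 nM SAG and triangles for 500 nM SAG. These elements were picked among those in which the days do not overlap. At each of the 8 increases the mean of the 2 triangles of day 5 lies below that of the 3 circles.

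Some elements of the pMN and motor neuron programs opened, while the elements at the start sites of the progenitor genes hardly moved. Among 54 tested elements assigned to 7 genes of pMN identity, 13 opened past a log2 fold of 1 and 1 closed, with a median VST difference of 0.36, against 11.8% opened, 3.49% closed and a median of 0.11 over all elements. An element 38300 bp upstream of Olig2, the bHLH factor that defines pMN, had normalized counts between 29.5 and 67.2 at day 4, with a median of 42.9, and 259, 264, 368, 167 and 259 at day 5. It opened by 2.47 on the log2 scale (VST difference 2.22 ± 0.157 (SE), adjusted p = 2.49e-08, limma), with no overlap. An element 73586 bp from the TSS of Nkx6-1, a homeodomain factor of the p2, pMN and p3 domains, went from a mean of 97.8 to 335 (log2 fold change 1.72). In the element 742 bp from the TSS of Olig2 itself, counts were between 1204 and 1510.1 at day 4, with a median of 1339.7, and 1823, 1877, 2128, 1974 and 1959 at day 5. That rise was small, 0.53 on the log2 scale, though larger than the spread between samples (adjusted p = 1.06e-05, limma). At the promoter elements of Nkx6-1, Sox2 and Pax6 the log2 fold changes were 0.06, 0.05 and 0.04, with adjusted p-values of 0.275, 0.498 and 0.559 by limma. These signs depend on the scaling, and centering each sample on its median made the VST differences -0.13, -0.14 and -0.15. Their levels at day 4 were already 2165, 1839.5 and 2903 normalized counts.

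Of 51 tested elements at genes that direct motor neuron fate, 9 opened (17.6%) and 0 closed by the same rule (median 0.18). Over all tested elements 11.8% opened, and over distal elements 14.9%, so the share of this list was only slightly above the latter. Of the 9, 5 also passed a log2 fold of 2. Lhx3 and Lhx4 are LIM homeodomain factors that specify motor neurons together with Isl1. The element 32803 bp from Lhx3, at chr2:26175047-26175846, had normalized counts between 21.9 and 65.4 at day 4, with a median of 37.5, and 557, 459, 513, 329.6 and 447 at day 5. The lowest sample of day 5 was 5-fold above the highest of day 4, and the log2 fold change was 3.49 (VST difference 3.23 ± 0.201 (SE), adjusted p = 7.79e-09, limma). Upstream of Lhx4, the element at chr1:155746946-155747436 had between 18.2 and 21.8 at day 4, with a median of 19.9, and 373, 292, 417, 177 and 333 at day 5. No sample of day 4 came near those of day 5, and the element opened by 3.88 (adjusted p = 1.13e-09, limma). In an intron of Ebf1, which acts in the migration and differentiation of new neurons, the mean went from 41.3 to 173 (log2 fold change 2.02). Lhx4 had 3 elements past a log2 fold of 2 among the 6 tested.

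Proneural and Notch genes had elements that opened as well. Of 34 elements at proneural bHLH genes, 9 opened (26.5%, against 11.8% of all tested elements) and 1 closed (2.94%, against 3.49%). The median VST difference was 0.59. In the exon of Neurog1, a proneural factor, an element at a mean of 952 in NMPs, went from a mean of 449 to 1112, and one near Neurod4 from a mean of 74.5 to 242. The proneural element that closed was assigned to Neurog2, which drives motor neuron progenitors out of the cycle, and was identified after its direction was seen. At 14 Notch pathway genes, 5 of 60 elements opened (8.33%) and 0 closed, a share of opened elements below that over all elements, with a median of 0.33. Dll1 encodes a Notch ligand that nascent neurons present to their neighbors. Its intronic element had counts between 115 and 189 at day 4, with a median of 167, and 589.8, 588, 639, 488 and 565 at day 5, a log2 fold change of 1.79 (adjusted p = 2.28e-08, limma). Elements near Hey1, a target of Notch, and Jag1, a ligand, went from a mean of 53.2 to 219 and from a mean of 85.7 to 251.

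Among genes used by all neurons, 12 of 35 tested elements opened (34.3%, against 11.8% of all tested elements) and 0 closed. Their median VST difference of 0.83 was the largest among the lists examined. Nhlh1 and Nhlh2 encode bHLH factors of newborn neurons. An element 14769 bp from Nhlh2 had normalized counts between 81.6 and 163 at day 4, with a median of 147, and 998, 999, 1014, 724 and 993 at day 5. The 500 nM sample of replicate 2 was the lowest of day 5 and still above every sample of day 4 (log2 fold change 2.80, VST difference 2.73 ± 0.158 (SE), adjusted p = 3.96e-09, limma). At Nhlh1 the promoter-TSS element itself opened, with counts between 30.4 and 66.5 at day 4, with a median of 41.9, and 315, 302, 393, 175 and 340.0 at day 5 (log2 fold change 2.69). Near Myt1l, a factor that maintains neuronal identity, the mean went from 54.5 to 225. The elements nearest the TSS of 5 neuronal markers (Tubb3, Elavl3, Stmn2, Isl1 and Mnx1) summed to between 2856 and 3599 normalized counts at day 4 and between 4158 and 4559 at day 5, and each was above 0 on both days. Tubb3, a neuronal tubulin, rose by 0.89 on the log2 scale (adjusted p = 1.99e-06, limma) and Elavl3, an RNA-binding protein of neurons, by 0.65 (adjusted p = 3.23e-05, limma). Stmn2 had a log2 fold change of -0.21, Isl1 of 0.15 and Mnx1 of 0.00, with adjusted p-values of 0.153, 0.154 and 0.958 by limma. At all 5 the mean in NMPs was above that of pMN at day 5. In NMPs it was 1722 at Tubb3, 1160 at Elavl3, 641 at Stmn2, 1018 at Isl1 and 1539 at Mnx1. The gate required SOX2, and whether newly born neurons had a part in the rises from day 4 to day 5 was not tested.

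Genes for cell adhesion and axon guidance formed the list with the most tested elements and the most that opened. Of 172 tested, 48 opened (27.9%, against 11.8% of all tested elements) and 8 closed (4.65%, against 3.49%). The median VST difference was 0.36, and 22 of the opened elements passed a log2 fold of 2. In an intron of Slit3, a ligand of Robo receptors, counts were between 36.4 and 92.3 at day 4, with a median of 61.6, and 675, 645, 846, 530.4 and 802 at day 5 (log2 fold change 3.54, adjusted p = 3.84e-09, limma). An element 290132 bp from the TSS of Dcc, a netrin receptor, went from a mean of 29.8 to 271 (log2 fold change 3.15). Efna5 encodes an ephrin, and its intronic element rose from a mean of 246 to 2151 and was closed in NMPs, where its mean was 9.30. Efna5, Cdh6, Epha3, Nrp2 and Robo2 each had elements in both directions. Genes with several elements past a log2 fold of 2 included Cdh11, a cadherin, with 4 of 8 tested, Nova1, a neuronal splicing factor, with 4 of 6, Nckap5 with 4 of 9 and Dcc with 3 of 9.

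At genes of temporal and gliogenic progression, 11 of 85 elements opened (12.9%) and 3 closed (3.53%), with a median of 0.12. These shares were near those of all tested elements (11.8% and 3.49%, median 0.11). Both directions were seen at 1 gene, Sox5. NFIA marks the onset of gliogenic competence in the spinal cord. The intronic element of Nfia at chr4:97917360-97918214 had normalized counts between 42.3 and 105 at day 4, with a median of 57.1, and 455, 382, 409, 329 and 327 at day 5 (log2 fold change 2.42, adjusted p = 8.16e-08, limma), and its mean was 813 at day 6. Near Zfhx3, which marks later-born neurons, the mean went from 162 to 815. The element 103653 bp upstream of Sox5, a SoxD factor, closed, with counts between 209 and 411 at day 4, with a median of 288, and 41.5, 29.4, 32.9, 25.4 and 41.5 at day 5. Its fall of 3.14 on the log2 scale (adjusted p = 1.12e-08, limma) followed a mean of 13.7 in NMPs, so the element was open at day 4 only among days 3, 4 and 5.

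The RA pathway and the Hox genes, which set position along the body axis, had elements in both directions, at shares near those of all tested elements (11.8% opened and 3.49% closed). Among 43 elements of the RA pathway 4 opened (9.30%) and 1 closed (2.33%), with a median of 0.18, and of 53 elements in Hox clusters 5 opened (9.43%) and 1 closed (1.89%), with a median of -0.0018. Near Rxra, which encodes the common partner of nuclear receptors, the element at chr2:27649477-27651544 had counts between 432 and 514 at day 4, with a median of 477, and 1778, 1661, 1671, 1825 and 1505 at day 5. The log2 fold change was 1.81 (VST difference 1.79 ± 0.073 (SE), adjusted p = 2.74e-10, limma). Elements of Cyp26b1, which degrades RA, and Crabp1, which binds it in the cytoplasm, went from a mean of 37.9 to 271 and from a mean of 44.5 to 223. The 1 element of the RA pathway that closed was also assigned to Cyp26b1. Within Hoxb4 an element rose from a mean of 757 to 3051, and one near Hoxc4 from a mean of 46.3 to 309. The promoter element of Hoxd4 closed, with counts between 150.3 and 225 at day 4, with a median of 193, and 34.7, 29.4, 49.7, 39.5 and 42.4 at day 5, after a mean of 352 in NMPs.

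At genes of the hedgehog pathway, 6 of 49 tested elements closed (12.2%) and 2 opened (4.08%), with a median VST difference of 0.02. Over all tested elements 3.49% closed and 11.8% opened. Gas1 and Boc encode co-receptors of Shh that its signal represses, and Gli3 encodes an effector whose repressor form limits ventral fates. Near Boc, counts were between 229 and 374 at day 4, with a median of 268, and 74.7, 89.2, 90.6, 61.9 and 72.1 at day 5 (log2 fold change -1.86, adjusted p = 9.42e-08, limma). At Gli3 an intronic element went from a mean of 334 to 139, and an element near Gas1 rose from a mean of 206 to 877. Elements at Ptch1, the Shh receptor, Smo, its transducer, and Sufu, an inhibitor of Gli factors, were among those that closed, and were named after their direction was seen. Boc and Gas1 each had elements in both directions. The 67 elements of NMP and caudal signaling genes gave 9 opened (13.4%), 6 closed (8.96%) and a median of -0.11. Within Lef1, an effector of Wnt, an element fell from a mean of 253 to 80.6, and the element nearest the TSS of Cdx2, a caudal factor, fell by 1.02 on the log2 scale (adjusted p = 1.50e-05, limma). Elements near Dusp6, an inhibitor of ERK, and in an intron of Wnt5a rose from a mean of 50.7 to 242 and from a mean of 49.8 to 182. Lef1 and Wnt5a each had elements in both directions.

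Genes of neighboring domains and of other cells of the dish were examined by the same counts. At genes of neighboring progenitors 13 of 83 elements opened (15.7%) and 4 closed (4.82%, median 0.04), against 11.8% and 3.49% of all tested elements. Of distal elements 14.9% opened and 4.35% closed by this rule, near the shares of this list. Elements assigned to Irx3 and Pax6, which act in p2 and p0-1, and Sp8 rose from a mean of 85.7 to 504, from a mean of 107 to 449 and from a mean of 169 to 525. Irx3 had elements in both directions. The list of p3 and floor plate gave 5 opened (9.26%) and 5 closed (9.26%) of 54 (median -0.05). That of mesoderm gave 2 opened (6.9%) and 0 closed of 29 (median -0.14). That of neural crest gave 7 opened (33.3%) and 0 closed of 21 (median 0.25). That of pluripotency gave 3 opened (16.7%) and 1 closed (5.56%) of 18 (median 0.0037). The opened shares of p3 and floor plate and of mesoderm were below that of all tested elements, while those of neural crest and of pluripotency were above it. An intronic element of Spon1, a floor plate protein, had between 458 and 609.7 at day 4, with a median of 567, and 131, 113, 118, 119.7 and 93.8 at day 5 (log2 fold change -2.26, adjusted p = 1.86e-09, limma). Spon1 too had elements in both directions. The element nearest the TSS of Foxa2, a factor of floor plate and early p3, had between 518 and 1231 at day 4, with a median of 866, and 291, 309.9, 447, 461 and 520.3 at day 5. It fell by 1.05 on the log2 scale (adjusted p = 0.000264, limma), although the lowest sample of day 4 lay just below the highest of day 5. Rises were seen at elements assigned to Shh (from a mean of 136 to 580.0), Slit1 (from a mean of 58.5 to 264), Meox1 (from a mean of 186 to 648), Tbx18 (from a mean of 66.5 to 159), Foxd3 (from a mean of 37.8 to 195), Mitf (from a mean of 189 to 666), Ets1 (from a mean of 407 to 979.9), Tfcp2l1 (from a mean of 32.5 to 202), Zfp42 (from a mean of 44.7 to 218) and Klf4 (from a mean of 93.1 to 223). The elements nearest the TSS of the p3 markers Nkx2-9 and Foxa2 summed to between 2018 and 3295 at day 4 and between 1867 and 2694 at day 5, and neither was at 0. Those of Pax6, Irx3, Dbx1 and Dbx2, which mark p0-1 and p2, summed to between 6106 and 6763 and between 5955 and 6910. The part that other cells might have in any result was not tested.

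Short motifs were not shared evenly between the elements that opened and those that closed, a comparison of shares given with no test. The E-box CAGATG, bound by OLIG2 and by proneural factors, was in the central 300 bases of 380 of 1044 opened elements (36.4%), of 20.4% of closed elements, of 21.6% of distal elements tested and of 18.8% of all tested elements. The nuclear receptor half-site AGGTCA was searched for after the sequences of the 8 largest increases had been read, in 6 of which it was found. It was in 354 of the other 1036 opened elements (34.2%), against 15.5% of closed, 17.8% of distal and 16% of all tested elements. At least one of these motifs was in 58.3% of opened elements and in 35.2% of distal elements, and both were in 12.5% and 4.13%. The share with a half-site was 16.3% among distal elements with a log2 fold change of 0 to 1, 23.5% at 1 to 2, 33.0% at 2 to 3, 39.5% at 3 to 4 and 50.0% of the 32 elements above 4, while the E-box went from 18.9% to 32.3%, 37.2%, 33.2% and 31.2%. The 32 elements above 4 include the 8 whose sequences led to the search, and without these 8 both the half-site and the E-box were in 10 of 24 elements (41.7%). Opened elements were poorer in GC than distal elements (median 45.6% against 50.5%). Within elements of 40 to 50% GC, a limit chosen after seeing the data, the half-site was in 35.0% of 719 opened and 19.8% of 10511 distal elements, and the E-box in 35.2% and 25.6%.

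**Figure D4:**
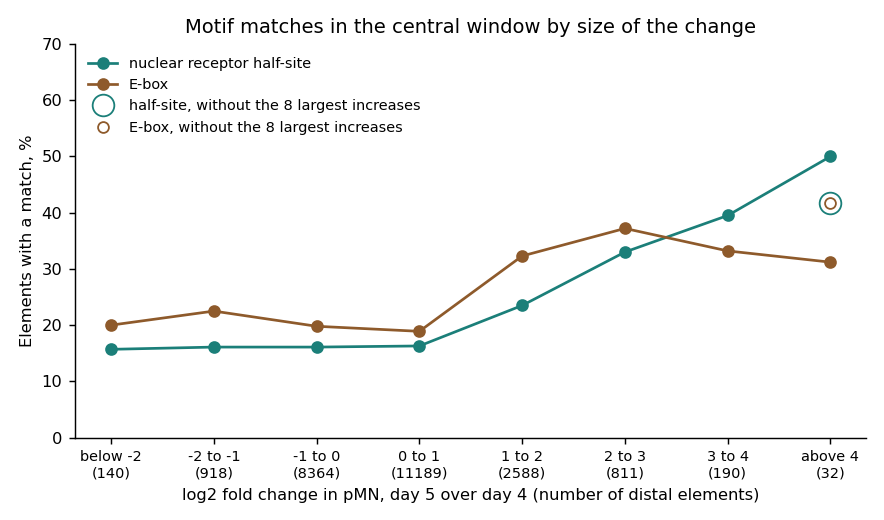
The share of distal elements (in %) with a nuclear receptor half-site (teal) or an E-box (brown) in the central 300 bases is plotted by the log2 fold change of the element in pMN from day 4 to day 5, with the number of elements in parentheses. Above 4 the half-site is in 50.0% and the E-box in 31.2% of 32 elements, which include the 8 largest increases, whose sequences led to the search for the half-site. Open circles give both shares without these 8 (41.7%).

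Shares of other motifs are given in the same order. The homeodomain core TAATTA was in 11.3% of opened, 8.45% of closed and 6.46% of distal elements, the E-box CATATG in 6.42%, 2.11% and 3.76%, and the octamer ATGCAAAT of POU factors in 3.35%, 2.11% and 1.93%. Within 40 to 50% GC these became 12.1%, 9.48% and 9.80% for TAATTA, 6.26%, 1.72% and 5.37% for CATATG, and 3.76%, 1.72% and 2.64% for the octamer, a smaller gap between opened and distal elements for each. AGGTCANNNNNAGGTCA (DR5), a pair of directly repeated half-sites spaced by 5 bases, the element that RA receptors bind, was in 0.287% of opened elements, in 0 closed elements and in 0.0619% of distal elements, so few that no order can be read. Closed elements were richer in TGTTTAC (FOX, 12% against 3.54% of opened and 3.64% of distal elements), in TTTATGG (CDX/HOX, 9.86%, 4.31% and 3.54%), in CCTGCTG (ZIC, 20.4%, 8.52% and 12.6%) and in ACAATGG (SOX, 14.1%, 10.1% and 7.48%). Within 40 to 50% GC the FOX share was 11.2% of 116 closed and 5.34% of distal elements, and the CDX/HOX share 10.3% and 5.17%, while the SOX share was 14.7% and 10.9% and the ZIC share 20.7% and 10.5%. The promoter-associated GGGCGG (SP/KLF) was in 5.75% of opened and 2.82% of closed elements, and in 23.0% of distal and 32.1% of all tested elements, but within 40 to 50% GC in 4.03% of opened, 2.59% of closed and 6.36% of distal elements. The other motifs searched, on both strands, were TGGCNNNNNGCCA (NFI), CACTTAA (NKX2), CAGCTG and CAGGTG (E-boxes), TCCCNNGGGA (EBF), ATCGAT (ONECUT), GTTGCCNNGGCAAC (RFX), GGAATG (TEAD), ATCAAAG (TCF/LEF), TGATTGAT (PBX/HOX), TGACAG (MEIS), AGGTGTGA (T-box), AGGTCANAGGTCA (DR1), ACCACCCA (GLI), TGANTCA (AP-1), AGGGGGC (CTCF) and CCGGAAG (ETS). MEIS matches were in 26.6% of opened, 21.1% of closed and 21.1% of distal elements, the E-box CAGGTG in 11.9%, 11.3% and 18.5%, and GLI matches in 1.63%, 1.41% and 1.67%. NFI matches were in 0.958%, 0.704% and 0.92%, and the remaining motifs were likewise counted without a test. DR1 and DR5 contain the half-site, so that these matches overlap. The matches are counts of letters in a window and say nothing of which factor was bound.

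The day 4 to day 5 change was next compared with that of the neighboring NP types, which may come from other dishes or other gates of the same dish: p2 (12 samples at 10 and 100 nM SAG), p0-1 (12 samples at 0 and 10 nM) and p3 (10 samples at 100 and 500 nM), whose shallowest library had 9298160 reads in elements. No SAG concentration was shared by p0-1 and pMN. These p0-1 samples thus came from other dishes, and cell type and concentration cannot be told apart there. The same rule called 1114 opened (3.58%) and 151 closed (0.485%) elements in p2, 1281 (4.18%) and 165 (0.539%) in p0-1, and 671 (2.21%) and 76 (0.251%) in p3. Of the elements that opened in pMN, 718 also did so in p2, which is 68.8% of the pMN list and 64.5% of that of p2. The overlap was 547 with p0-1 (52.4% and 42.7%) and 286 with p3 (27.4% and 42.6%). Of the elements that closed, 78 were shared with p2 (54.9% and 51.7%), 40 with p0-1 (28.2% and 24.2%) and 20 with p3 (14.1% and 26.3%). An element below the filter in another cell type could not be shared, and 454 of the 1044 were tested in p3, against 892 in p2 and 686 in p0-1. Medians of the opened set went from 51.4 ± 15.5 to 297 ± 42.2 normalized counts in p2 (SD, n = 6 each) and from 33.8 ± 3.996 to 136 ± 13.6 in p3 (SD, n = 5 each).

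A call in one cell type and not in another is no difference, so the interaction of day and cell type was tested. Between pMN and p2, 25 of 31184 elements (0.0802%) differed by more than 1 in log2 fold change at an adjusted p under 0.01, of which 18 had the larger value in pMN. With the replicate number as a block this was 89, of which 47 were larger in pMN, and without a block voom called 12. The largest difference was 6698 bp upstream of Mnx1, which encodes a homeodomain factor of motor neurons. In pMN this element had normalized counts between 62.9 and 86.03 at day 4, with a median of 74.4, and 284, 234, 316, 134 and 331 at day 5. It was already open in NMPs, where its mean of 368 was above its mean of 259.8 in pMN at day 5. In p2 its mean was 73.7 ± 14.4 at day 4 and 61.4 ± 29.1 at day 5 (SD, n = 6 each), so the change was larger in pMN by 2.01 on the log2 scale (adjusted p = 0.00431, limma). It was larger by 2.95 than in p0-1 (adjusted p = 1.55e-06, limma) and by 2.08 than in p3 (adjusted p = 6.29e-05, limma). An intronic element of Nxn, a thioredoxin family member, went from a mean of 40.1 to 453 in pMN and from 28.6 to 118 in p2, a difference of 1.49 (adjusted p = 0.000874, limma). The most negative differences from p2 were in an intron of Mir99ahg (-1.87, adjusted p = 0.00788, limma) and near 1700017G19Rik (-1.76, adjusted p = 0.0039, limma). At Mir99ahg the mean went from 70.8 to 32.3 in pMN and from 124 to 196 in p2, in opposite directions. Near 1700017G19Rik both went up, from 8.35 to 69.7 in pMN and from 12.8 to 336 in p2. Neither passed the filter on the mean when pMN was fitted alone.

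Between pMN and p0-1, 653 of 30951 elements (2.11%) differed, 473 of them with the larger value in pMN, and 993 did so with the block. The element near Lhx3 had a log2 fold change larger by 1.84 in pMN (adjusted p = 0.000313, limma). Against p2 its difference was 0.78 (adjusted p = 0.159, limma), which did not pass. At Dll1 the difference from p0-1 was 1.24 (adjusted p = 0.00146, limma) and at the element 742 bp from the TSS of Olig2 it was 1.24 (adjusted p = 0.000547, limma), where p0-1 went from 626 ± 222 to 381 ± 48.8 (SD, n = 6 each). The intronic element of Sigirr, a receptor that dampens interleukin signals, had between 59.03 and 87.8 at day 4, with a median of 75.7, and 116, 108, 143, 113 and 175 at day 5 in pMN. Its log2 fold change was 0.82 in pMN and -2.17 in p0-1, where the mean fell from 191 ± 78.6 to 41.8 ± 3.35 (SD, n = 6 each). The difference from p0-1, 2.99, thus came mostly from closing in p0-1. The most negative differences from p0-1 were near Jak2 (-4.25) and in an intron of Grin2a (-2.18), where the mean went from 54.1 to 34.3 in pMN and from 143 to 400.3 in p0-1. Near Jak2 the pMN samples had between 4.26 and 20.2 normalized counts over both days, while p0-1 reached a mean of 388 at day 5. The elements at Jak2 and Grin2a did not pass the filter on the mean when pMN was fitted alone. They were tested only through their level in p0-1, so that a large difference was built into the choice.

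Between pMN and p3, 1040 of 30875 elements (3.37%) differed, 579 of them with the larger value in pMN and 461 with the smaller. In an intron of Nrxn3, a presynaptic adhesion molecule, pMN had between 8.53 and 24.7 at day 4, with a median of 16.2, and 429, 308, 538, 248 and 444 at day 5, whereas p3 went from 7.73 ± 2.65 to 19.4 ± 5.87 (SD, n = 5 each). The difference of the log2 folds was 3.20 (adjusted p = 8.26e-06, limma). The intronic element of Acaca, an enzyme of fatty acid synthesis, opened in pMN, p2 and p0-1 but had 28.4 ± 2.51 and 41.8 ± 16.99 in p3 (SD, n = 5 each), with a difference from pMN of 2.59 (adjusted p = 2.23e-05, limma). An exonic element of Fmn2, an actin nucleator, closed in pMN, with counts between 493 and 776 at day 4, with a median of 623, and 54.3, 50.6, 101, 60.8 and 119.9 at day 5. In p3 its mean was 225 ± 107 at day 4 and 274 ± 91.3 at day 5 (SD, n = 5 each), a difference of -3.20 (adjusted p = 2.23e-05, limma). An element near Mir466f-4 stayed at 17.04 or fewer normalized counts in pMN and rose in p3 to a mean of 477, a difference of -3.69 (adjusted p = 3.18e-05, limma). This element did not pass the filter on the mean when pMN was fitted alone. It was tested only through its level in p3, so that a large difference was built into the choice. Of the largest increases, those near Pdha2 and Fut8 were larger in pMN than in p3 by 2.44 and 1.96 (adjusted p = 8.38e-06 and 1.92e-05, limma), while that near Tmem161b differed by -0.03 (adjusted p = 0.843, limma).

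**Figure D5:**
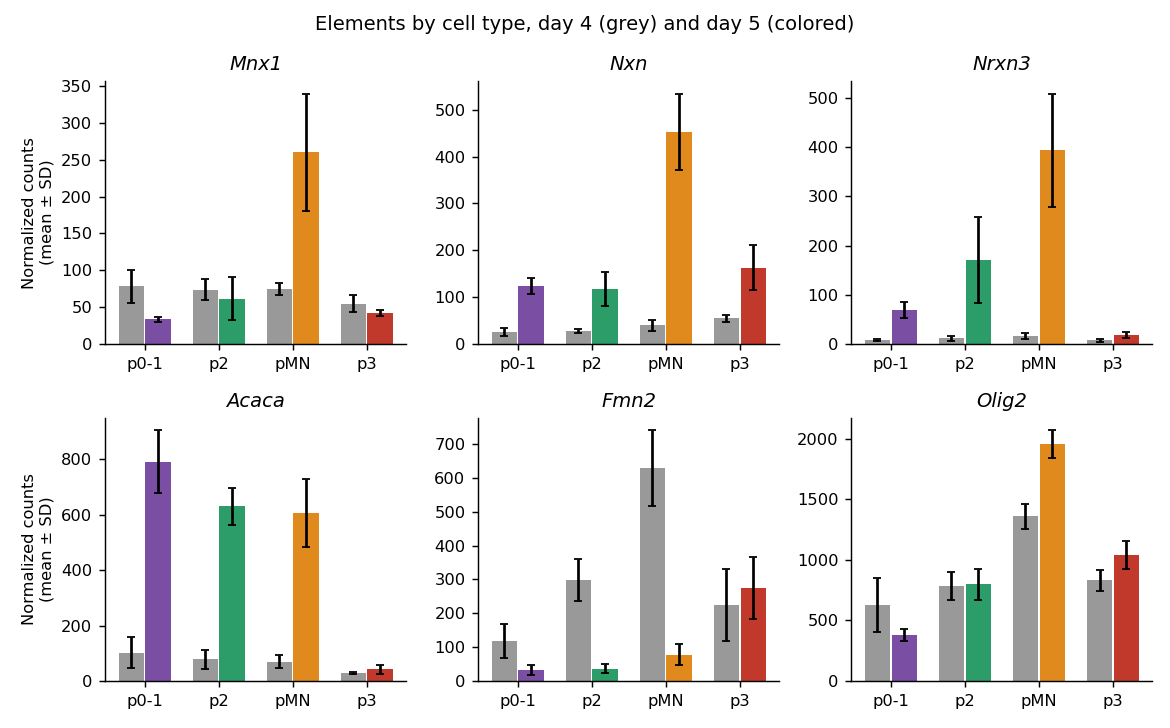
Bars give the mean ± SD of normalized counts over samples at elements assigned to Mnx1, Nxn, Nrxn3, Acaca, Fmn2 and Olig2 (742 bp from its TSS) in p0-1, p2, pMN and p3, with day 4 in grey and day 5 in the color of the cell type (5 or 6 samples per bar). At Mnx1 the day 5 mean is 259.8 in pMN and 33.5 to 61.4 in the others, while at Acaca it is 607 to 791 in pMN, p2 and p0-1 and 41.8 in p3.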

How the data were processed

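The 67 samples were mouse HM1 embryonic stem cell derivatives assayed by CaTS-ATAC, of which 11 pMN samples were compared and the p2, p0-1 and p3 samples of days 4 and 5 served for contrast. The authors aligned reads to mm10 with nf-core/atacseq 1.2.0, called peaks with MACS, kept consensus peaks found in at least 2 replicates, counted reads, and deposited DESeq2 variance-stabilized values on a log2 scale (VST) for 111638 elements. A deposited HOMER annotation gave the class and nearest gene. Here the VST was inverted to normalized counts, and reads recovered below 1000 were whole to within 6.01e-11.

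Models were fitted with limma 3.58.1 in R 4.3.3 to the VST values, with a variance trend, elements with a mean above 100 normalized counts, and SAG concentration as a factor. The main fits had no replicate block. Tests were two-sided with Benjamini-Hochberg adjustment over all tested elements. Calls needed less than 0.01 as adjusted p, and a log2 ratio of mean normalized counts plus 1 beyond 2 in size (1 for gene lists), with concentrations weighted equally. Interactions needed a difference above 1. The fits were tested on simulated data.

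Sequences of 300 bases came from GRCm38 by pyfaidx, and all elements lay on its chromosomes. Tables were computed in Python 3.11.15.

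Named elements were the 8 largest increases and decreases without overlap between days, up to 3 per gene list, the element nearest the TSS of Olig2, Nkx6-1, Sox2, Pax6 and Foxa2 (Nkx2-2 was not analysed here), and 2 in each direction per interaction. The comparison, members and lists were chosen with earlier results of these data known. Title numbers pair the samples, because deviations of same-numbered samples correlated between days in all 10 pairs (r from 0.239 to 0.569). Titles and descriptions number the 500 nM samples of day 5 differently, and title numbers were used. Alternatives covered the filter, fold scale, trend, block, centering, voom on recovered reads, samples and windows. Expression and binding data of the study were not analysed here, and results at some named elements are not reported here.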

Additional observations from a re-analysis of the deposited data

Results flagged for a closer look

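At 4 of the elements named above, 1 sample stood apart from the others of its day, by a gap that took up most of the range of that day. About 1 in 20 groups are picked out in this way by chance. The 500 nM sample of replicate 2 at day 5 was low at the elements of Ebf1 (133 normalized counts), Nhlh2 (724) and Grin2a (14.2). The 100 nM sample of replicate 2 at day 5 was low at the element assigned to Shh (443).

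The change from day 4 to day 5 differed between cell types, by a test of the interaction, at the elements listed here with the difference of log2 fold changes. pMN minus p2 gave 1.49 at Nxn, 2.01 at Mnx1, -1.87 at Mir99ahg and -1.76 at 1700017G19Rik. pMN minus p0-1 gave 2.95 at Mnx1, 2.99 at Sigirr, -4.25 at Jak2 and -2.18 at Grin2a. pMN minus p3 gave 2.59 at Acaca, 3.20 at Nrxn3, -3.69 at Mir466f-4 and -3.20 at Fmn2. The elements at Mir99ahg, 1700017G19Rik, Jak2, Grin2a and Mir466f-4 did not pass the filter on the mean when pMN was fitted alone.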

How the results depend on the processing

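The counts of 1044 opened and 142 closed elements were the same with the replicate block, with voom, without the variance trend and without the SAG covariate. These alternatives change the p alone. In the main fit 0 elements past the fold had an adjusted p of 0.01 or more, so the fold alone set these counts. They could have fallen but not risen, and their lack of change says little. Without the filter on the mean they were 4814 and 1409, at a log2 fold of 1 they were 3663 and 1085, with GC-bin centering 666 and 259, and with GC-bin centering and the replicate block 655 and 266. Leaving out each replicate gave 876 to 1232 opened and 113 to 209 closed. The interaction of day and SAG concentration stayed at 0 called elements in all alternatives, including each replicate left out (0 to 0).

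For pMN minus p2, 25 elements became 187 without the filter, 89 with the replicate block (71 with the numbers of the descriptions, 85 with GC-bin centering added), 12 with voom and 1 at a difference of 2. Leaving out each replicate gave 10 to 28. It was 14 without replicate 2 at 100 nM or replicate 3 at 500 nM on day 4, 15 without replicate 2 at 500 nM on day 4 or replicate 1 at 100 nM on day 5, and 10 without replicate 3 of either concentration on day 5. For pMN minus p0-1, 653 became 6151 without the filter, 993 with the replicate block (1095 with GC-bin centering added) and 39 at a difference of 2, with 469 to 633 when each replicate was left out. For pMN minus p3, 1040 became 7182 without the filter and 50 at a difference of 2, with 813 to 1148 when each replicate was left out. The block moved no other count by over 1.5 times and changed no call of a named element between days. Among the differences between cell types it added calls at 2 named elements against p2 (Boc and Lhx4), 2 against p0-1 (Fmn2 and Hebp2) and 3 against p3 (Foxd3, Prpf18 and Slit3), and it removed 0. The cause of these differences was not tested.

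Of 1003 recomputed VST differences of named elements between days, 1000 kept their direction and their side of the threshold. With median centering the other 3 turned, to -0.126 at the element nearest the TSS of Nkx6-1, -0.144 at that of Sox2 and -0.152 at that of Pax6, none of them called. Motif shares were lower in a window of 200 bases (E-box CAGATG 26.7% of opened and 10.6% of closed elements). Day 5 at 500 nM rests on 2 samples, and fewer reads at elements near 0 limit the size of the largest folds.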
